A study of Homo sapiens with 6 samples.

Results

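Antisense long non-coding RNAs (lncRNAs) with appreciable expression in SK-OV3 cells were examined together with the genes they are named after. They were taken as the rows of the count table whose symbol ends in -AS followed by digits and whose mean raw count over the 6 libraries was at least 100. Of the 59653 rows, 1435 carry such a symbol, and 489 of these had 0 counts in every library. The count minimum was met by 110 of them. They were thus chosen by their mean raw count and by no other measured value, and it ran from 100.3 for HOXA-AS2 to 4291 for FGD5-AS1 with a median of 199.6. The rows just inside the minimum were HOXA-AS2, USP2-AS1 with 100.8 and SDCBP2-AS1 with 101.2, and those just outside were SNAI3-AS1 with 99.0, KIF9-AS1 with 98.2 and PSMD6-AS2 with 96.8. The minimum was met in both groups by 84 of the 110, through the siControl libraries alone by 19 and through the siPVT1 libraries alone by 7. The gene named before -AS, here called the sense partner, had a row of its own for 107 of the 110. No row is named HOXA, HOXB or RPARP. DLGAP1 is the partner of both DLGAP1-AS1 and DLGAP1-AS2, so there were 106 different partners.

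SK-OV3 is an established line of human epithelial ovarian cancer. Cells were transfected with a pool of siRNAs against the lncRNA PVT1 (siPVT1) or with a non-targeting pool (siControl), and RNA was collected after 48 h, with 3 libraries in each group. A single siRNA pool was used in a single cell line, and the labels do not say that replicates came from separate cultures, so p-values measure the spread between these libraries. The total count per library lay between 28383171 and 35059576. PVT1 itself gave 3298, 4091 and 3377 normalised counts in the siControl libraries and 2350, 2111 and 2063 in the siPVT1 libraries, a log2 fold change of −0.72 ± 0.10 (SE, adjusted p = 0.000342, edgeR's quasi-likelihood test). The 3 siPVT1 libraries were all below the 3 siControl libraries, although the decrease did not reach the 2-fold threshold used for calls. Of the markers checked, KRT8, KRT18, KRT7, PAX8 and ERBB2 were abundant in all libraries. KRT19 rose (2.30 ± 0.25) and WT1 fell (−1.01 ± 0.16), and MUC16 varied from 17.9 to 635 normalised counts over the siPVT1 libraries. EPCAM and CDH1 were low, with group means of at most 96.7 and 27.1 normalised counts. Leukocyte PTPRC had at most 2.02 normalised counts in any library and hepatocyte ALB at most 21.2. COL1A1, a collagen gene of fibroblasts, rose from 113 ± 8.70 (SD, n = 3) to 505 ± 7.70 (n = 3), and PECAM1, a gene of endothelium, from 37.6 ± 3.73 (n = 3) to 299 ± 24.3 (n = 3). The part of these marker changes in the values below was not tested.

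An antisense lncRNA is transcribed from the strand opposite to a protein-coding gene and overlaps it or starts close to it. Many start at the same promoter region as the sense gene and run away from it, whereas others start inside the gene or beyond its end. Individual antisense RNAs are known to act on the chromatin, transcription, splicing or stability of the neighbouring gene, but many have no known function and are made wherever an open promoter fires in both directions. The symbol records a position on the genome and not a function. By the GENCODE v44 annotation of GRCh38, 109 of the 110 could be placed, 108 as lncRNAs and 1 as a transcribed unprocessed pseudogene. SVIL-AS1 was not placed because its name belongs to more than 1 gene there. Of the placed RNAs, 11 carry another symbol in v44, and 10 of these now end in -DT, for divergent transcript. The count table was made with another GENCODE release on the same genome build.

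RefSeq promoter windows, which reach from 250 bases before to 50 bases after a transcript's start (GRCh38.p14), were matched for 90 of the 110. In 82 pairs both genes had a window, and in 21 of these the windows of antisense and sense shared between 39 and 270 bases. Windows are printed here for the RNA with the largest decrease (VPS9D1-AS1), the one with the largest increase (SH3RF3-AS1), the one that moved against its called sense gene (TMEM44-AS1), and 2 that share most of their window with a sense gene that did not move with them (KTN1-AS1, 214 bases shared with KTN1, and TRAM2-AS1, 241 bases shared with TRAM2). The last 2 were chosen after their values were seen. Each is given 5′ to 3′ on the strand of the antisense RNA. Capitals mark the letters ACGTG, searched on both strands and so also as CACGT. This is a core of the hypoxia response element and lies in the E-box CACGTG, which holds it once on each strand.
VPS9D1-AS1, chr16:89711606-89711905, plus strand: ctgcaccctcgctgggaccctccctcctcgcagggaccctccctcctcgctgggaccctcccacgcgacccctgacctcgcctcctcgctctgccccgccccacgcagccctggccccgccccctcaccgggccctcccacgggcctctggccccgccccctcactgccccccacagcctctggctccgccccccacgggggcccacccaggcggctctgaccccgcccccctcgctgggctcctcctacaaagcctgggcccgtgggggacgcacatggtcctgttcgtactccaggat
SH3RF3-AS1, chr2:109130070-109130369, minus strand: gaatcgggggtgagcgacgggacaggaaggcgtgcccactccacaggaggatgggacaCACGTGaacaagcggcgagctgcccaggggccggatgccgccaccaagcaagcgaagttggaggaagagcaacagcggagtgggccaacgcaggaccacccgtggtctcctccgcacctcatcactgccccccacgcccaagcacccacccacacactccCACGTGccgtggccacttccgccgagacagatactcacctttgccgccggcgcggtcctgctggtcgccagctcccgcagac
TMEM44-AS1, chr3:194584018-194584317, plus strand: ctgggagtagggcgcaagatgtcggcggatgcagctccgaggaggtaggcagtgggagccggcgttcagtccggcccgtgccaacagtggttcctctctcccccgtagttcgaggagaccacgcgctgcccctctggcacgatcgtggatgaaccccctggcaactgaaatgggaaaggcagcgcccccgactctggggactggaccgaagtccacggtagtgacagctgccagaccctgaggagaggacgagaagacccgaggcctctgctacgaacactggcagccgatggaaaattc
KTN1-AS1, chr14:55580043-55580342, minus strand: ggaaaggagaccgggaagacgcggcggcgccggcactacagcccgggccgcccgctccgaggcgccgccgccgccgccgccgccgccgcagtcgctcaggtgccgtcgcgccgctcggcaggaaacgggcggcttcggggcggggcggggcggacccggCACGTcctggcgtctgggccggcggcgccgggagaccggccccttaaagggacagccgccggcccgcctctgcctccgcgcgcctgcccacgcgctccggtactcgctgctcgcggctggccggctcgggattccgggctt
TRAM2-AS1, chr6:52576952-52577251, plus strand: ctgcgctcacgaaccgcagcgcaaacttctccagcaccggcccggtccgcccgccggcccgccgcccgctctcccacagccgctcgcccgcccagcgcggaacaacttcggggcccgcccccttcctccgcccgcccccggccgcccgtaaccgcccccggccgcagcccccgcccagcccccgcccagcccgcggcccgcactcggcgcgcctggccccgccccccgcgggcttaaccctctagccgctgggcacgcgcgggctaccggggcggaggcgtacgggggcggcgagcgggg
The SH3RF3-AS1 window holds 2 CACGTG boxes and the KTN1-AS1 window holds CACGT once, whereas the other windows printed hold neither. ACGTG occurred in 21.4% of all 35114 promoter windows and in 32 of the 90 antisense windows (35.6%). It was found in 7 of the 15 windows of RNAs that fell (46.7%) and in 2 of the 5 windows of RNAs that rose (40.0%). The median GC content was 64.2% in the antisense windows and 58.7% in all windows. The windows shown are GC-rich, with 82.0% for TRAM2-AS1, 80.0% for KTN1-AS1, 75.7% for VPS9D1-AS1, 67.3% for SH3RF3-AS1 and 63.3% for TMEM44-AS1. RefSeq and GENCODE v44 do not always start an RNA at the same base: the RefSeq start of SH3RF3-AS1 lies inside the body of SH3RF3, whereas the v44 body lies before it.

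In siPVT1 cells the expressed antisense lncRNAs were lower more often than higher. Of the 110, all of which passed the filter on low counts, 21 fell and 5 rose past both thresholds, an adjusted p under 0.05 and a log2 fold change of at least 1 in size. These 26 are 23.6% of the antisense RNAs, against 21.5% of the 19008 genes tested. By direction, 19.1% of the antisense RNAs fell, against a background of 9.64%, and 4.55% rose, against a background of 11.8%. The 19008 genes were not held to the count minimum. Of the 11930 other genes with a mean raw count of at least 100, 6.5% fell and 9.63% rose. Of these calls, 12 of the 21 that fell and 4 of the 5 that rose were in RNAs whose mean reached 100 in only 1 of the groups, through the group where they were higher. Among the 84 whose mean reached 100 in both groups, 9 fell (10.7%) and 1 rose (1.19%), with a median of −0.19. Under the same limit, 5.71% of all 11433 genes fell and 8.06% rose. The median log2 fold change of all 110 antisense RNAs was −0.27 (quartiles −0.76 and 0.19), whereas that of all tested genes was 0.00. With the adjusted p alone, 74 of the 110 differed (background 57.9%), of which 54 fell (background 28.4%) and 20 rose (background 29.5%). The groups did not overlap for 81 of the 110 (73.6%, against 65.6% of all genes). Their summed counts made up 0.156% to 0.163% of each siControl library and 0.122% to 0.127% of each siPVT1 library.

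Other non-coding rows did not all lean the same way. Of the 198 other rows with a mean raw count of at least 100 that v44 lists as lncRNA, 27 fell (13.6%) and 16 rose (8.08%), with a median of −0.14. Among the 11051 protein-coding rows at or above the same minimum, 6.40% fell and 9.68% rose. Of the 359 -AS rows that were tested but lay under the minimum, 64 fell (17.8%) and 52 rose (14.5%), with a median of −0.09. That order turned when any 1 siControl library was left out, with 42 lower and 48 higher without replicate 1, 47 and 50 without replicate 2, and 48 and 49 without replicate 3. The filter still needed 3 libraries, so rows counted in siControl alone could not pass it with a siControl library left out. Among all genes 7.54% to 7.79% then fell, in place of 9.64%. How much of the turn came from the filter was not tested. The 18 rows named -DT at or above the minimum had a median of 0.24, and 3 rose (16.7%, background 11.8%) and 1 fell (5.56%, background 9.64%). Those that rose, BAIAP2-DT, MAP4K3-DT and SAP30-DT, had siControl means under 100 and so met the minimum through siPVT1 alone, where they were higher. SAP30-DT, named after a subunit of the Sin3 deacetylase complex, was at 8.57, 10.1 and 6.47 normalised counts in siControl and at 225, 217 and 174 in siPVT1. These -DT names were chosen after their values were seen. Scaling by the total count in place of TMM moved the median of all genes to −0.15 and that of the antisense RNAs to −0.42. Under that scaling 22.7% of the antisense RNAs fell, against 12.4% of all genes, and 13.8% of the calls among them were higher, against 43.8% of the calls among all genes (19.2% and 55.1% with TMM).

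**Figure D1:**
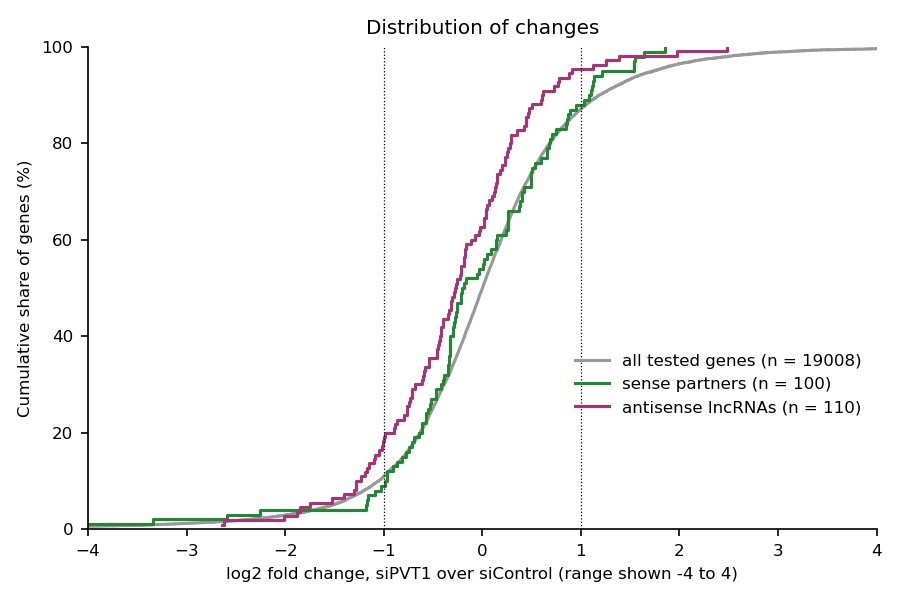
Cumulative share of genes (y axis, percent) by log2 fold change of siPVT1 over siControl (x axis) for the 110 antisense lncRNAs, their 100 tested sense partners and all 19008 tested genes, with dotted lines at the thresholds of −1 and 1. The antisense curve lies to the left of the curve of all genes over the middle of the range, with medians of −0.27 and 0.00.

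VPS9D1-AS1 had the lowest log2 fold change. It lies at chr16:89711856-89718165, inside the body of VPS9D1 on the opposite strand. Its normalised counts were 357, 347 and 338 in the siControl libraries and 39.0, 55.7 and 70.5 in the siPVT1 libraries. Each siPVT1 library was far below each siControl library, and the log2 fold change was −2.64 ± 0.18 (SE, adjusted p = 1.05e-05). VPS9D1 itself, which encodes a protein with a VPS9 domain, was at 91.4, 115 and 93.3 in siControl and 154, 186 and 141 in siPVT1 (0.68 ± 0.15, adjusted p = 0.00562, under the 2-fold threshold). The antisense RNA thus held the larger count in every siControl library and the smaller one in every siPVT1 library.

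FLG-AS1 runs across the body of FLG at chr1:152168125-152445456. FLG encodes filaggrin, a protein of the epidermal barrier. FLG-AS1 was at 349, 436 and 377 normalised counts in siControl and 95.8, 60.1 and 35.7 in siPVT1, a log2 fold change of −2.62 ± 0.28 (adjusted p = 9.88e-05). FLG was at 2191, 2187 and 2171 in siControl and 243, 223 and 181 in siPVT1, a log2 fold change of −3.34 ± 0.11 (adjusted p = 5.14e-07). Antisense and sense fell together, and the groups overlapped in neither. In v44 the exons of the 2 share 1587 bases, 10.6% of the antisense exonic length. Per kilobase of exon FLG had 171 siControl counts and FLG-AS1 25.9. The strand setting of the counting is not given, so reads of FLG may be counted for FLG-AS1 there. Their part in its change was not tested.

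LURAP1L-AS1 varied little within each group, at 266, 264 and 262 normalised counts in siControl and 64.6, 62.3 and 69.5 in siPVT1 (−2.01 ± 0.10, adjusted p = 3.18e-06). Its partner LURAP1L fell as well, from 143, 189 and 153 to 80.2, 77.6 and 70.5 (−1.09 ± 0.15, adjusted p = 0.000374). That call was lost without siControl replicate 2, when the log2 fold change of LURAP1L was −0.96.

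The other RNAs among the lowest had a partner that did not pass the thresholds. ZFPM2-AS1 is named after ZFPM2 (FOG2), a cofactor of GATA transcription factors. It was at 495, 511 and 500 normalised counts in siControl and 147, 141 and 122 in siPVT1 (−1.88 ± 0.10, adjusted p = 3.18e-06). ZFPM2 stayed between 391 and 411 in siControl and between 400 and 493 in siPVT1 (0.14 ± 0.10, adjusted p = 0.249). The groups overlapped for ZFPM2 and lay far apart for its antisense RNA. PRKCQ-AS1 starts 118 bases from PRKCQ, the gene of protein kinase C theta, and runs away from it. It was at 199, 209 and 204 in siControl and 49.0, 61.2 and 70.5 in siPVT1 (−1.75 ± 0.15, adjusted p = 2.83e-05). PRKCQ had values that overlapped, 66.7, 84.9 and 82.2 against 54.6, 59.0 and 71.4 (−0.33 ± 0.18, adjusted p = 0.145).

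ENTPD1-AS1 was expressed without its partner. ENTPD1 encodes CD39, an enzyme at the cell surface that degrades extracellular ATP. ENTPD1-AS1 was at 652, 703 and 668 normalised counts in siControl and 163, 163 and 233 in siPVT1 (−1.85 ± 0.14, adjusted p = 1.93e-05), whereas ENTPD1 had at most 4.04 in any library and was not tested. ZBTB11-AS1, which runs head to head with the zinc finger gene ZBTB11, fell from 151, 134 and 178 to 52.3, 56.8 and 52.6 (−1.52 ± 0.15, adjusted p = 7.10e-05). ZBTB11 was lower by less than 2-fold (−0.55 ± 0.06, adjusted p = 9.44e-05). TMEM147-AS1 starts 429 bases from TMEM147, which encodes a membrane protein of the endoplasmic reticulum. It was at 785, 769 and 786 in siControl and 353, 279 and 254 in siPVT1 (−1.40 ± 0.12, adjusted p = 3.31e-05), with TMEM147 slightly higher (0.37 ± 0.08, adjusted p = 0.00394, under the threshold).

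The remaining 13 RNAs that fell had log2 fold changes between −1.30 (NINJ2-AS1) and −1.0003 (NNT-AS1), and in none of them did the groups overlap. NNT-AS1 is named after the nicotinamide nucleotide transhydrogenase of mitochondria. It was at 376, 362 and 406 normalised counts in siControl and 196, 186 and 190 in siPVT1, and its log2 fold change of −1.0003 lay on the threshold, so that the call was lost without siControl replicate 3 (−0.96) and without siPVT1 replicate 2 (−0.998). ADIRF-AS1 had the widest spread of this set, at 519, 415 and 201 in the siPVT1 libraries against 868 to 940 in siControl (−1.28 ± 0.28, adjusted p = 0.00455). WARS2-AS1, named after the mitochondrial tryptophanyl-tRNA synthetase, was the most abundant of the set after ADIRF-AS1, at 735, 725 and 773 in siControl and 330, 359 and 390 in siPVT1. NINJ2-AS1, ADIRF-AS1 and WARS2-AS1 were chosen after their values were seen.

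**Figure D2:**
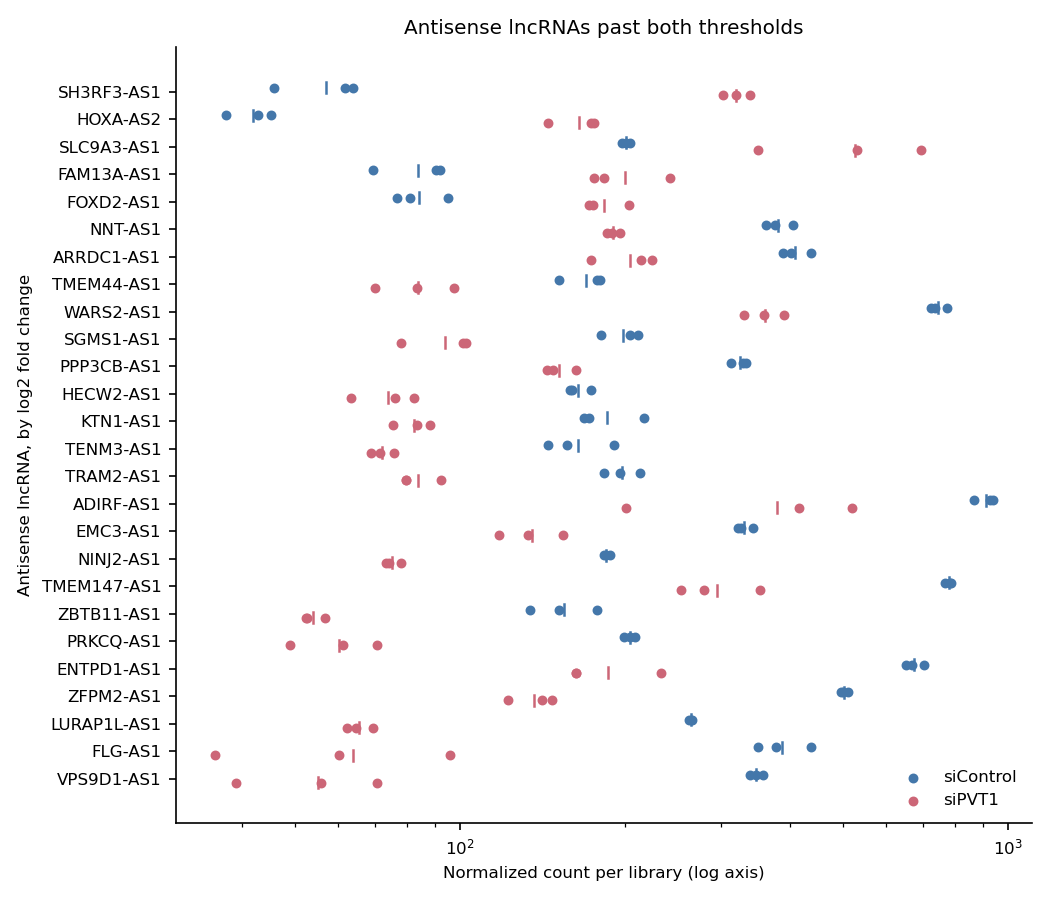
Normalised count per library (x axis, log scale) of the 26 antisense lncRNAs past both thresholds (y axis, ordered by log2 fold change), with 1 point per library and a bar at the mean of each group of 3. The siControl and siPVT1 points do not overlap in any of the 26, and 21 of them are lower in siPVT1.

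Of the 5 RNAs that rose, SH3RF3-AS1 had the largest log2 fold change. SH3RF3 encodes a ubiquitin ligase with SH3 domains. SH3RF3-AS1, at chr2:109127327-109128930, was at 45.7, 61.6 and 63.7 normalised counts in siControl and 318, 339 and 302 in siPVT1 (2.48 ± 0.14, adjusted p = 4.66e-06). SH3RF3 rose too, from 1609, 1629 and 1540 to 4025, 3833 and 3226 (1.21 ± 0.09, adjusted p = 1.46e-05). The pair starts 275 bases apart in v44 and shares no exonic base.

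HOXA-AS2 has no partner by name and lies within the body of HOXA3, a homeobox transcription factor, on the opposite strand. It was at 42.9, 37.4 and 45.3 normalised counts in siControl and 174, 176 and 145 in siPVT1 (1.97 ± 0.15, adjusted p = 1.88e-05). HOXA3 was at 99.0, 74.8 and 103 in siControl and 312, 338 and 318 in siPVT1 (1.80 ± 0.13, adjusted p = 1.52e-05), so both were higher in every siPVT1 library. HOXB-AS1, the other RNA of a homeobox cluster, was at 128, 126 and 128 in siControl and 233, 252 and 232 in siPVT1, just under the 2-fold threshold (0.91 ± 0.10, adjusted p = 9.80e-05). It overlaps HOXB2 head to head and HOXB3 tail to tail. HOXB3 rose (1.17 ± 0.07, adjusted p = 5.66e-06), whereas HOXB2 had a log2 fold change of 0.24 ± 0.10 (adjusted p = 0.0637).

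SLC9A3-AS1 and FAM13A-AS1 rose without a called partner. SLC9A3 encodes the sodium/proton exchanger NHE3. SLC9A3-AS1 was at 201, 204 and 198 normalised counts in siControl and 695, 530 and 350 in siPVT1, where the libraries spread widely but stayed above all controls (1.38 ± 0.22, adjusted p = 9.30e-04). SLC9A3 overlapped between the groups (−0.27 ± 0.21, adjusted p = 0.310). FAM13A-AS1 was at 69.5, 91.9 and 90.5 in siControl and 242, 184 and 176 in siPVT1 (1.25 ± 0.17, adjusted p = 0.000399), and FAM13A was higher by less than 2-fold (0.50 ± 0.13, adjusted p = 0.0131). FOXD2-AS1 and the forkhead gene FOXD2 start 3403 bases apart and rose together. FOXD2-AS1 was at 80.9, 76.8 and 95.1 in siControl and 175, 203 and 172 in siPVT1 (1.12 ± 0.14, adjusted p = 0.000196). FOXD2, a row of low counts, was at 11.4, 16.2 and 14.8 in siControl and 44.5, 43.7 and 44.2 in siPVT1 (1.64 ± 0.23, adjusted p = 0.000450). With total count scaling the log2 fold change of FOXD2-AS1 was 0.97, and the call was lost.

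The 6 most abundant antisense RNAs were not among the calls, and they did not move in 1 direction. FGD5-AS1, named after an exchange factor for CDC42 of endothelium, was at 4326, 4112 and 4289 normalised counts in siControl and 3771, 4140 and 4993 in siPVT1. The groups overlapped (0.02 ± 0.10, adjusted p = 0.874, and −0.13 with total count scaling), and FGD5 had at most 5.54 in any library and was not tested. OIP5-AS1, also known as Cyrano, a well-conserved lncRNA, was at 3319, 3274 and 3222 in siControl and 4064, 4622 and 4845 in siPVT1 (0.46 ± 0.07, adjusted p = 0.000890), so it was higher in all 3 libraries by less than 2-fold. DLGAP1-AS2 was likewise higher by less than 2-fold (0.44 ± 0.07, adjusted p = 0.000665). OTUD6B-AS1 (−0.44 ± 0.09, adjusted p = 0.00400), GABPB1-AS1 (−0.40 ± 0.10, adjusted p = 0.0109) and PSMA3-AS1 (−0.54 ± 0.09, adjusted p = 0.00144) were lower by less than 2-fold. For OTUD6B, a deubiquitinase, and for GABPB1, a subunit of the transcription factor GABP, it was the sense gene that fell past the threshold (−1.17 ± 0.17, adjusted p = 5.03e-04, and −1.18 ± 0.16, adjusted p = 4.16e-04). Both antisense RNAs start within 464 bases of their sense gene.

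Further antisense RNAs known from the literature were not called, some of them with groups that did not overlap. HIF1A-AS3 overlaps the hypoxia factor gene HIF1A tail to tail, over 40962 bases of its body. HIF1A-AS3 was at 445, 409 and 421 normalised counts in siControl and 246, 198 and 202 in siPVT1. Its log2 fold change of −0.98 ± 0.11 (adjusted p = 0.000115) lay just under the threshold and passed it with total count scaling (−1.13) and without siControl replicate 2 (−1.01) or siPVT1 replicate 1 (−1.10). HIF1A was slightly higher (0.26 ± 0.06, adjusted p = 0.00600). ZEB1-AS1, beside the gene of the transcription factor ZEB1, overlapped between the groups and had no stable sign (0.12 ± 0.15, −0.03 with total count scaling, adjusted p = 0.542). The same held for MAPKAPK5-AS1 (0.01 ± 0.13, adjusted p = 0.933, and −0.13 with total count scaling). MCM3AP-AS1 (0.15 ± 0.13, adjusted p = 0.339) and CD27-AS1 (−0.17 ± 0.14, adjusted p = 0.316) overlapped as well, but their sign did not turn under any alternative. ITGB2-AS1 was higher by less than 2-fold (0.78 ± 0.15, adjusted p = 0.00262), while ITGB2, the beta-2 integrin known from leukocytes, rose from 406 ± 27.2 (SD, n = 3) to 834 ± 63.6 (n = 3), or 1.04 ± 0.09 on the log2 scale (adjusted p = 3.42e-05). That call was lost without siControl replicate 3 (0.99) or siPVT1 replicate 1 (0.96) and with total count scaling (0.89).

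Among the sense partners, decreases did not outnumber increases. Of the 106, 100 were tested, and 8 fell (8%, background 9.64%) and 12 rose (12.0%, background 11.8%), with a median log2 fold change of −0.20. With total count scaling 13 fell and 6 rose, and their median was −0.35, so the direction of the split among partners depends on the scaling. ALOX12, CD27, CKMT2, ENTPD1, FGD5 and GPRC5D were under the filter on low counts, although their antisense RNAs were not. Per kilobase of exon in v44, the antisense RNA had more siControl counts than the sense gene in 31 of 106 pairs, and the median sense level was 2.72 times the antisense level.

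Over the 101 pairs with both genes tested, the change of an antisense RNA was only loosely tied to that of its partner. Both passed the thresholds in the same direction in 4 pairs (3.96%), FLG and LURAP1L lower and FOXD2 and SH3RF3 higher. The background was 3.01% of 3756 pairs of tested genes that neighbour each other on opposite strands, with overlapping bodies or starts within 5 kb. Only the TMEM44 pair passed in opposite directions (0.990%, background 1.60%). In each of these pairs, that of TMEM44 included, the antisense RNA met the count minimum only through the group where it was higher. The neighbour pairs were not held to that minimum, so these are not matched backgrounds. In 19 pairs only the antisense RNA passed, in 16 only the sense gene and in 61 neither did. The 2 changes had the same sign in 62 pairs (61.4%, against 55.0% of neighbour pairs). Pearson's r over the 101 pairs was 0.16 and Spearman's rho 0.18, against 0.13 and 0.13 over the neighbour pairs. Over the 86 pairs whose sense row also had a mean raw count of at least 100, r was 0.36 and rho 0.26. All pairs share the same 6 libraries, so these are descriptions across pairs and not tests. With a library left out, fewer pairs passed the filter. The r over the pairs still tested ranged from 0.13 without siPVT1 replicate 2 (99 pairs) to 0.36 without siControl replicate 1 (98 pairs). Over pairs whose sense row also reached 100 it ranged from 0.32 without siPVT1 replicate 3 to 0.38 without siPVT1 replicate 1.

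**Figure D3:**
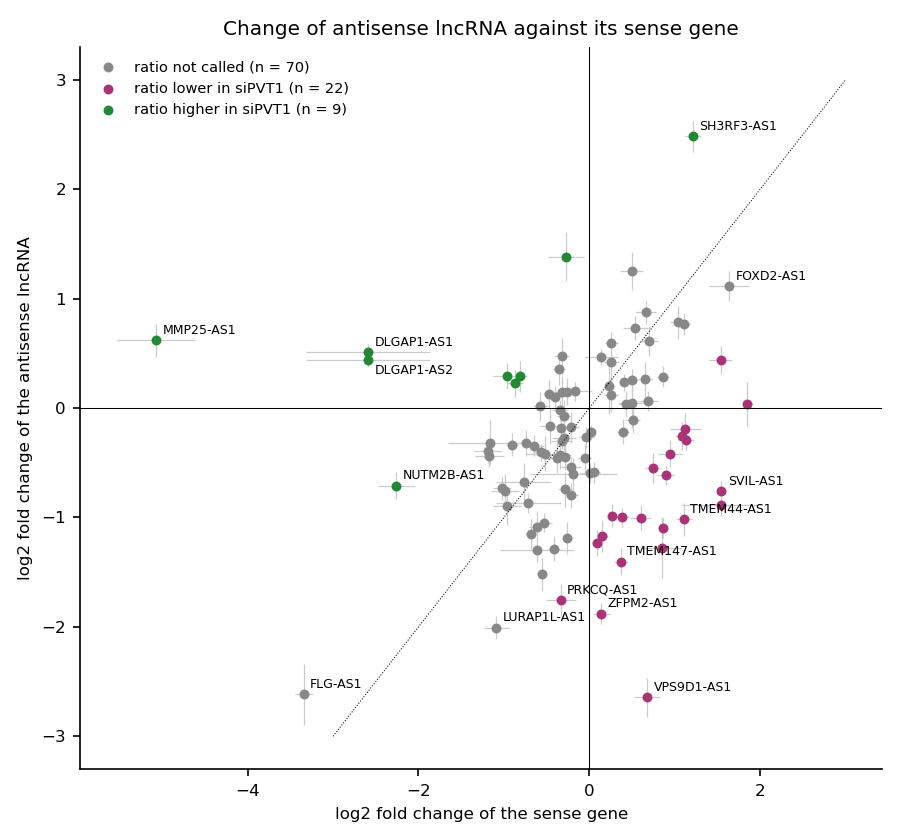
Log2 fold change of each antisense lncRNA (y axis) against that of its sense gene (x axis) for the 101 tested pairs, with grey bars of 1 SE and the diagonal as a dotted line. Coloured points are the 22 pairs whose antisense to sense ratio fell and the 9 pairs whose ratio rose in siPVT1. The cloud is wide about the diagonal, with Pearson's r of 0.16.

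The pair of TMEM44-AS1 and TMEM44, a gene of a membrane protein, moved apart. TMEM44-AS1 was at 180, 152 and 178 normalised counts in siControl and 83.5, 69.9 and 97.7 in siPVT1 (−1.02 ± 0.15, adjusted p = 0.000655). TMEM44 was at 751, 745 and 772 in siControl and 1834, 1573 and 1480 in siPVT1 (1.11 ± 0.09, adjusted p = 2.43e-05). The groups did not overlap in either gene. Because both changes lay near the threshold, 1 of the 2 calls was lost without siControl replicate 1 or 3 (−0.98 and −0.99 for TMEM44-AS1), without siPVT1 replicate 2 (−0.92) or 1 (0.999 for TMEM44), and with total count scaling (0.96 for TMEM44). The change of the ratio between the 2, which does not depend on the scaling, was −2.13 ± 0.18 on the log2 scale (adjusted p = 2.02e-05).

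Whether antisense and sense changed by different amounts was tested directly, with limma on the log2 ratio of the 2 normalised counts within each library, over the neighbour pairs and the antisense pairs together. The ratio differed past both thresholds in 31 of the 101 antisense pairs (30.7%), against a background of 29.8% of the neighbour pairs, so unequal change was about as frequent here as among neighbours in general. With the adjusted p alone it differed in 62 pairs (background 59.3%). Within the 31, the ratio fell in 22 and rose in 9. No background by direction is given, because a neighbour pair need not hold an antisense RNA. Some RNAs whose ratio fell, such as VPS9D1-AS1, PRKCQ-AS1 and TRAM2-AS1, met the count minimum through siControl alone, where they were higher. SH3RF3-AS1, whose ratio rose, met it through siPVT1 alone. The ratios of DLGAP1-AS1 and DLGAP1-AS2, both among those that rose, use the same sense row. The groups of ratios did not overlap in 71 pairs (70.3%, background 66.4%).

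The lowest ratio was that of VPS9D1-AS1. Its log2 ratio to VPS9D1 was 1.96, 1.58 and 1.85 in siControl and −1.97, −1.73 and −0.99 in siPVT1, a change of −3.36 ± 0.24 (limma, adjusted p = 8.99e-06). The sign of the ratio was turned in all 3 siPVT1 libraries. The ratio of ZFPM2-AS1 to ZFPM2 turned its sign as well, from 0.27, 0.39 and 0.34 to −1.44, −1.59 and −2.01 (−2.01 ± 0.16, adjusted p = 1.13e-05). For NNT-AS1 (−1.38 ± 0.11, adjusted p = 1.31e-05), PRKCQ-AS1 (−1.43 ± 0.17, adjusted p = 1.07e-04) and TMEM147-AS1 (−1.78 ± 0.14, adjusted p = 1.07e-05) the ratio also fell, as it did for HIF1A-AS3 (−1.25 ± 0.13, adjusted p = 6.15e-05).

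In other pairs with a lower ratio the sense gene rose past the threshold and the antisense RNA did not. The pairs of this paragraph and the next were chosen after their values were seen. GAS6, the ligand of the TAM receptor kinases, rose from 1089 ± 2.08 (SD, n = 3) to 3924 ± 222 (n = 3), and GAS6-AS1 had a log2 fold change of 0.03, for a ratio change of −1.85 ± 0.19 (adjusted p = 4.88e-05). SVIL, which encodes the actin-binding protein supervillin, rose from 3557 ± 99.5 (n = 3) to 10389 ± 338 (n = 3), whereas SVIL-AS1 had a log2 fold change of −0.76 (ratio −2.31 ± 0.12, adjusted p = 1.59e-06). SUCLG2, a subunit of succinyl-CoA ligase, rose by 1.13 ± 0.09 on the log2 scale, whereas SUCLG2-AS1, which starts 57 bases from it, had a log2 fold change of −0.29 (ratio −1.42 ± 0.14, adjusted p = 4.85e-05). SBF2 was higher by 0.95 ± 0.14, under the threshold, beside SBF2-AS1 at −0.42 ± 0.12 (ratio −1.34 ± 0.20, adjusted p = 4.32e-04), and SBF2 passed the threshold without siPVT1 replicate 3 (1.08).

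Among the 9 ratios that rose, those of the largest size stand on sense rows of few counts. MMP25, a membrane-type matrix metalloproteinase, was at 77.1, 91.9 and 88.7 normalised counts in siControl and 4.45, 0 and 2.82 in siPVT1, and MMP25-AS1 had a log2 fold change of 0.62. DLGAP1, a postsynaptic scaffold gene, was at 11.4, 8.08 and 13.9 in siControl and 1.11, 4.37 and 0 in siPVT1, and both of its antisense RNAs were higher by less than 2-fold. NUTM2B fell from 67.1 ± 5.83 (n = 3) to 13.96 ± 2.44 (n = 3), and its row and that of NUTM2B-AS1 are uncertain because near-identical paralogs share reads. The ratio of SH3RF3-AS1 rose by 1.28 ± 0.17 (adjusted p = 2.29e-04), the antisense RNA having risen by more than its partner, from a siControl mean of 57.0 ± 9.86 (SD, n = 3). The ratio of SLC9A3-AS1 rose by 1.60 ± 0.26 (adjusted p = 7.73e-04).

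**Figure D4:**
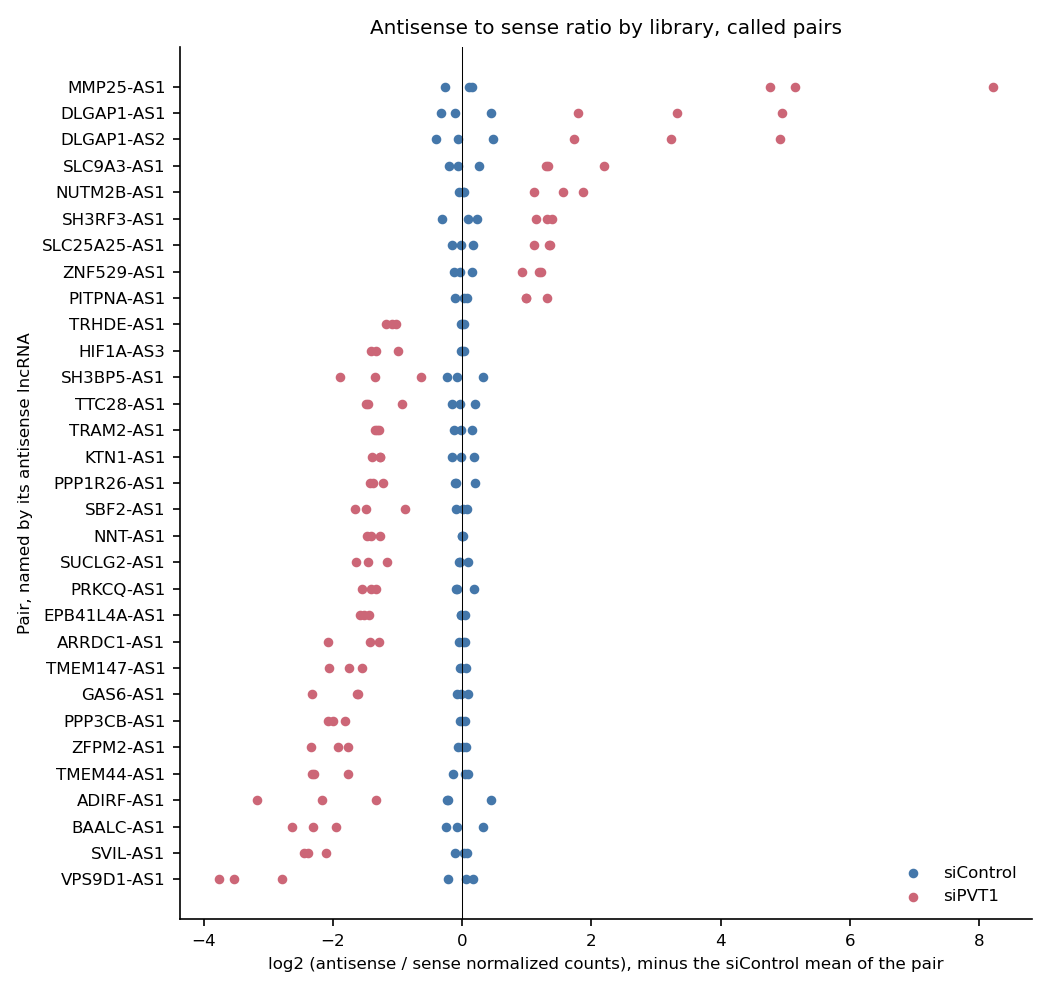
Log2 ratio of antisense to sense normalised counts in each library, minus the siControl mean of the pair (x axis), for the 31 pairs past both thresholds (y axis, ordered by the change of the ratio), with 1 point per library. The siControl points gather about 0, and the siPVT1 points lie to the left in 22 pairs and to the right in 9.

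By position in v44, 106 pairs could be arranged. Exons of antisense and sense shared bases in 78 of them, with a median of 360 bases, or 5.66% of the antisense exonic length. The strand setting of the counting is not given in the sources used here, and reads from shared exonic bases cannot be told apart without it. The ratio was called in 21 of the 74 tested pairs with shared exonic bases and in 9 of the 26 without. Median antisense and sense changes were −0.32 and −0.18 with shared exonic bases and −0.21 and −0.26 without. A decrease of the antisense RNA was called in 15 of the pairs with and 5 of the pairs without shared exonic bases. ZFPM2-AS1, LURAP1L-AS1, PRKCQ-AS1 and SH3RF3-AS1 share no exonic base with their partner in v44, and TMEM44-AS1 shares 92 bases (5.40%). VPS9D1-AS1 shares 518 bases, 29.5% of its exonic length, and FLG-AS1 shares 1587 bases (10.6%).

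Head-to-head overlap, in which the 2 genes overlap at their starts, was the most frequent arrangement, with 44 tested pairs. Of these antisense RNAs 12 fell (27.3%, against 9.64% of all genes and 19.1% of all antisense RNAs) and 0 rose past both edgeR thresholds. Among those that fell, KTN1-AS1, LURAP1L-AS1, NINJ2-AS1, SGMS1-AS1, TENM3-AS1, TRAM2-AS1 and ZBTB11-AS1 met the count minimum through siControl alone, where they were higher. All genes were not held to that minimum, so 9.64% is not a matched background. The share among head-to-head RNAs that met it in both groups was not tested. The medians were −0.37 for the antisense RNAs and −0.28 for the sense genes. In the 15 divergent pairs without overlap, 1 antisense RNA fell and 2 rose, with medians of 0.14 and 0.05, and the changes had Pearson's r of 0.60 over those 15 pairs. Over the 44 head-to-head pairs r was −0.004. It was −0.17 for tail-to-tail pairs, −0.11 with the antisense RNA inside the sense gene and 0.84 over the 7 pairs with the sense gene inside the antisense RNA. Those 7 include FLG, with the largest changes among them (−2.62 and −3.34), and NUTM2B, whose row is uncertain. The 15 divergent pairs include SH3RF3 and FOXD2. FLG-AS1, SH3RF3-AS1 and FOXD2-AS1 met the count minimum only through the group where they were higher, and r without these pairs is not given. In the 21 tail-to-tail pairs the medians were −0.32 and 0.24, and the ratio was called in 11 (52.4%, against 29.8% of neighbour pairs), falling in 9. With the antisense RNA inside the sense gene the ratio was called in 7 of 12 pairs (58.3%), falling in 3. It was called in 8 head-to-head pairs (18.2%), 3 divergent pairs (20.0%) and 1 with the sense gene inside the antisense RNA (14.3%). In the 12 pairs with the antisense RNA inside the sense gene the medians were 0.36 and 0.20, and in the 7 with the sense gene inside the antisense RNA they were −0.59 and −0.64. Over the 38 pairs with starts within 1 kb r was 0.34, and over the 62 with starts farther apart it was 0.13. Starts here are the outermost gene ends in v44, so the arrangements rest on that annotation. By it KTN1-AS1 and KTN1 start 21816 bases apart, although their RefSeq windows share 214 bases. These groups are small and were not compared by a test.

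**Figure D5:**
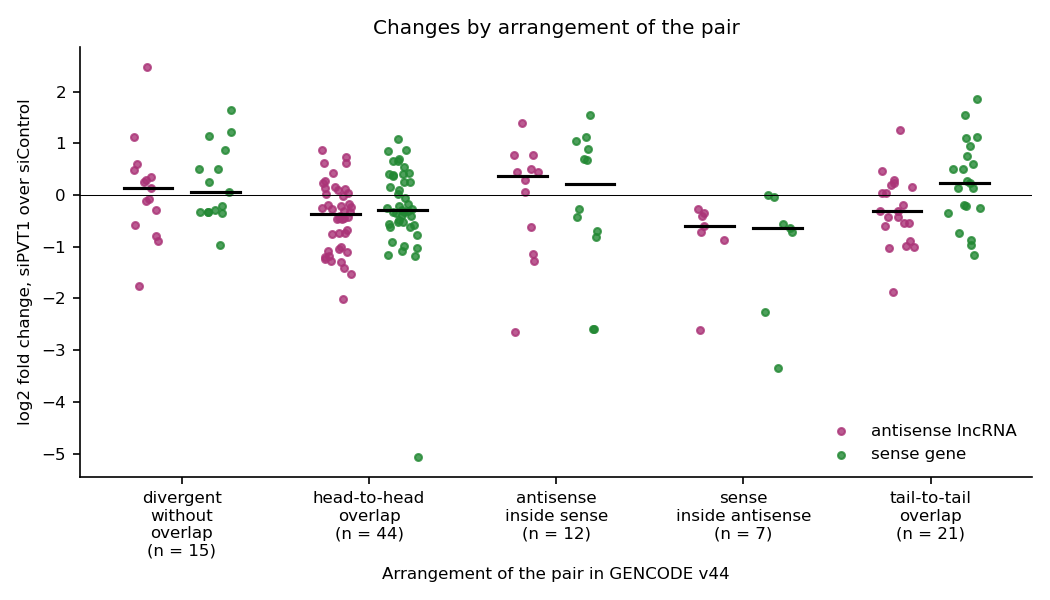
Log2 fold change (y axis) of the antisense lncRNA and of its sense gene, with 1 point per gene and a bar at the median, for each arrangement of the pair in GENCODE v44 (x axis, n tested pairs). The antisense median is below 0 in the head-to-head, tail-to-tail and enclosing arrangements and above 0 in the other 2.

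Among the 21 pairs whose promoter windows share bases, the ratio was called in 3 (14.3%, against 29.8% of neighbour pairs), and 12 had changes of the same sign (57.1%, against 55.0%). The 3 were those of KTN1, TRAM2 and SUCLG2. KTN1-AS1, whose window is among those shown, fell from 217, 169 and 172 normalised counts in siControl to 83.5, 75.4 and 88.3 in siPVT1 (−1.17 ± 0.14, adjusted p = 2.18e-04). KTN1, the gene of kinectin of the endoplasmic reticulum, was at 12529 ± 837 (SD, n = 3) and 13939 ± 512 (n = 3), a log2 fold change of 0.15 ± 0.07 (adjusted p = 0.0799). TRAM2-AS1 fell from 196, 183 and 213 to 92.4, 79.8 and 79.9 (−1.23 ± 0.12, adjusted p = 6.92e-05), while TRAM2 overlapped between the groups (0.09 ± 0.06, adjusted p = 0.259). The changes of the ratio were −1.32 ± 0.14 for both pairs (adjusted p = 7.47e-05 for KTN1 and 5.31e-05 for TRAM2).

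Nuclear lncRNAs are trimmed and degraded by the RNA exosome with its cofactors and by exonucleases, and genes of this machinery were listed with those that process, edit, bind or export RNA. Of these 38 genes, all tested, 2 fell and 0 rose past both thresholds of edgeR's test, 5.26% against 21.5% of all genes, and their median log2 fold change was −0.29. With the adjusted p alone 19 fell (background 28.4%) and 4 rose (background 29.5%), and 23 of the 38 in all differed, against 57.9% of all genes. The 2 that fell past both thresholds were DIS3L, a catalytic subunit of the cytoplasmic exosome (803 ± 51.5 to 336 ± 57.2, SD, n = 3 each, log2 fold change −1.25 ± 0.13), and NXF1, the main export receptor of mRNA (2446 ± 66.4 to 1191 ± 244, n = 3 each, log2 fold change −1.04 ± 0.13). DIS3L and NXF1 were named after their values were seen. The number that fell was 1 without siPVT1 replicate 1 or 2 and 4 without siPVT1 replicate 3.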

How the data were processed

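Gene expression in SK-OV3 cells was measured by RNA sequencing in 3 siControl and 3 siPVT1 libraries, grouped as the labels give them. The authors aligned reads with STAR to GENCODE transcripts and quantified them with Salmon, and the table they deposited holds estimated counts, rounded and not normalized, with 1 row for each symbol. The submitters' processing notes name bcl2fastq 2.20.0, STAR 2.7.3a, Salmon 0.14.1, DESeq2 1.28.1 and GRCh38.p13. Total counts of about the same size in all libraries give similar precision, and counting error is largest for rows of few counts. The strand setting is not given in the sources used here.

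These counts were TMM-scaled in edgeR 4.0.16 (R 4.3.3), and siPVT1 was compared with siControl by the quasi-likelihood test on 19008 genes with at least 5 normalised counts in at least 3 libraries. Calls needed a Benjamini-Hochberg adjusted p under 0.05, taken over every tested gene, and a log2 fold change of 1 or more in size. An SE was obtained as the size of the change over the root of F. Adjusted p-values in the report are from this test, except those of ratios. Ratios were tested with limma 3.58.1 (trend) on log2 of antisense over sense normalised counts with a prior count of 0.5, with the same thresholds and adjustment over the 3756 neighbour pairs and the antisense pairs. Positions came from GENCODE v44, and promoter windows from RefSeq. On simulated data with 200 of 18619 genes changed in siPVT1 against siControl, edgeR recovered 93.0% with 4 false calls and DESeq2 88.0% with 0. On the ratios, limma recovered 82.9% of 82 changed ones over 3766 pairs with 0 false calls. Every simulated gene had the same dispersion, and the planted changes of genes all lay beyond the log2 threshold. These figures therefore do not give the recovery near the threshold or the false calls in the data themselves.

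The antisense RNAs, the gene lists and the tests were chosen with earlier results of these data known. Pairs were named if the antisense RNA was among the 8 highest or 8 lowest past both thresholds, if both genes passed (up to 8 pairs in each case), if it was among the 6 most abundant, or if it was on a list of antisense RNAs known from the literature. Alternatives were DESeq2 1.42.0, its size factors, total count scaling, filterByExpr or no filter on low counts, a replicate block, each library left out, the adjusted p alone, ratio prior counts of 2, starts within 1 kb, and count minimums of 50 and 200.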

Additional observations from a re-analysis of the deposited data

How the results depend on the processing

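Of the 53 genes named by rule and tested, 45 kept their call or lack of one under every alternative run, and no called change turned its sign. The sign turned under at least 1 alternative in 5 named genes that were not called: FGD5-AS1 (−0.129), MAPKAPK5-AS1 (−0.131), ZEB1-AS1 (−0.0315), OIP5 (−0.00740) and ZFPM2 (−0.00756) with total count scaling, and all but ZFPM2 also without 1 or more of the libraries. Those that lost or gained a call were FOXD2-AS1, HIF1A-AS3, ITGB2, LURAP1L, NNT-AS1, SBF2, TMEM44 and TMEM44-AS1, all with log2 fold changes near 1 in size, with the values given in the report. With total count scaling 6 sense partners rose and 13 fell. With the count minimum at 50, 15 antisense RNAs, 20 sense partners and 17 ratios rose, 31 antisense RNAs, 17 sense partners and 33 ratios fell, 9 pairs passed in the same direction and r was 0.292. With the minimum at 200, 1 antisense RNA rose and 11 fell, 6 sense partners rose and 5 fell, 5 ratios rose and 15 fell, 1 pair passed in the same direction and 0 in opposite directions, and r was 0.089. With the adjusted p alone, 20 antisense RNAs rose and 54 fell, 39 sense partners rose and 39 fell, 35 pairs passed in the same direction and 18 in opposite directions. Chosen after seeing the data, the limit to pairs whose sense row also reached 100 gave r = 0.356, and the limit to antisense RNAs with both group means at 100 left 1 that rose and 9 that fell. Over the left-out libraries, antisense RNAs that fell ranged from 18 to 22, sense partners that rose from 8 to 12 and that fell from 5 to 11, pairs passing in opposite directions from 0 to 1, r from 0.131 to 0.355, antisense rows under the minimum that rose from 32 to 50 and that fell from 42 to 69, and genes of the RNA decay list that fell from 1 to 4. The lowest of these came without siControl replicate 3 for sense partners that fell, without siPVT1 replicate 2 for antisense rows under the minimum that rose and without siControl replicate 1 for those that fell, and the highest r without siControl replicate 1. With 1 library left out the filter still needed 3 libraries. Rows counted in the reduced group alone were then not tested, and r was taken over 97 to 100 pairs. Apart from fewer genes passing with a higher minimum, the cause was not tested. Same-numbered libraries did not deviate together (correlations −0.0324, 0.0205 and 0.000856), so the numbers were not taken to pair them. With the replicate block 5 antisense RNAs rose and 20 fell, the call of NNT-AS1 being lost (−0.9996), and the log2 fold change of PVT1 was −0.72. Rows of few counts, such as DLGAP1 and MMP25, limit the precision of their ratios.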
